A study of Mus musculus with 4 samples.

Results

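The Serpin genes of the mouse were followed in ureters in which the basal-cell form of p63 was targeted for deletion. Members were all genes on the arrays whose name in the files is Serpin followed by a clade letter and a number, which gave 61 genes of the 24357 named genes, on 77 probes. Clade A has 24 of them, clade B has 27 and clades C to I have 10. Testing needed a probe with signal well above background in every RNA of the cKO, of the control, or of both. This held for 38 members, namely 18 of clade A, 11 of clade B and 9 of clades C to I, and 23 members could not be tested.

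RNA came from ureters of NMRI embryos at stage E18.5, on 4 arrays of 2 colours that each carried 1 cKO and 1 control RNA. The cKO carried Pax2-cre/+ and 2 floxed Trp63 alleles, Trp63(dN-flox/dN-flox), while the control was Trp63(dN-flox/?), with at least 1 floxed allele, an unstated other allele and no cre listed. Array 2 was a male pair and the other 3 arrays were female pairs. Pax2-cre is a transgene active in the nephric duct lineage that forms the ureter epithelium. The floxed region is meant to remove the ΔN form of p63, a transcription factor of basal epithelial cells. Nothing in the labels says whether an RNA came from 1 embryo or from several. A p-value here thus reflects spread between arrays of the same dye layout, which may be partly technical.

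Serpins are a family of proteins that mostly trap serine or cysteine proteases: the protease cuts an exposed loop, the serpin refolds and both are locked together. Clade A holds secreted serpins, many of them made by the liver for blood plasma, and in the mouse its Serpina1 and Serpina3 genes have multiplied into arrays of near copies. Clade B serpins stay inside the cell, are frequent in epithelia and leukocytes, and guard against proteases that leak from granules and lysosomes. Clades C to I include regulators of clotting, clot lysis and complement, and the collagen chaperone Serpinh1.

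Of 38 tested Serpin genes, 2 were higher in the cKO, Serpinb6b and Serpina11, and 1 was lower, Serpinb5 (limma, Benjamini-Hochberg adjusted p under 0.05 over 18161 genes). Over all tested genes 2.92% were higher and 5.62% were lower, 8.54% together. The median log2 ratio of cKO over control was 0.11 over the Serpin genes, 0.30 over clade A, 0.03 over clade B and 0.28 over clades C to I, against 0.00 over all genes. At an unadjusted p under 0.05, 13 Serpin genes were higher and 2 were lower, where 10.8% and 12.8% of all genes were. The 13 are not independent: they include Serpina1a, Serpina1c, Serpina1d and Serpina1e, whose probes share sequence or are listed for a common gene. They also include Serpina3k, which was above background in only 2 control RNAs. Levels of the 4 cKO RNAs lay wholly above those of the 4 control RNAs for 1 member, Serpinb6b, and wholly below for 1, Serpinb5; over all genes these shares were 3.66% and 6.19%. The other 36 overlapped.

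The probes of the 2 called clade B genes, and the probe of Serpinb8 at the far end of the same gene cluster as Serpinb5, are shown by a window of 30 bases each, 5′ to 3′ as the array files give them, with probe positions in mm9. Capitals in Serpinb8 mark a run of 14 bases of TG repeats, the longest such run in any Serpin probe. No annotation in mm9 was used, so the place of a probe in its transcript is not given.
Serpinb5, chr1:108778585-108778644, plus strand: ccaagtctcagggaacttgtctgtagtcgc
Serpinb6b, chr13:33070776-33070835, plus strand: ccttcatcctctctgcagcaatactgggat
Serpinb8, chr1:109504865-109504924, plus strand: tgtgtgtaTGTGTGTGTGTGTGcctctgtg

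Several Serpin genes are near copies, and their probes share sequence. The probe of Serpina1c is listed for Serpina1a and Serpina1b too, that of Serpina1d also for Serpina1b, that of Serpina3f also for Serpina3h, and that of Serpinb9f also for Serpinb9e. Windows of 30 bases are shown for 2 groups of paralogs, with capitals at the positions where the probes differ. The Serpina1 window has 1 such position and the Serpinb6 window 6.
Serpina1a, chr12:105091819-105091878, minus strand: aTgtcatccttccttctgaattgggttcct
Serpina1c, chr12:105133165-105133224, minus strand: aTgtcatccttccttctgaattgggttcct
Serpina1e, chr12:105185172-105185231, minus strand: aAgtcatccttccttctgaattgggttcct
Serpinb6a, chr13:34009796-34009855, minus strand: agtgaccttatccataaGtGCaatgGcaAT
Serpinb6c, chr13:33971703-33971762, minus strand: agtgaccttatccataaGtGCaatgAcaGC
Serpinb6e, chr13:33924218-33924277, minus strand: agtgaccttatccataaAtATaatgAcaGT
The longest run of bases without a difference was 47 between the probes of Serpina1a and Serpina1c, 29 between those of Serpina1a and Serpina1e, 26 between Serpinb6a and Serpinb6c and 21 between Serpinb6c and Serpinb6e. Values of genes within such a group are therefore uncertain as values of single genes and are not independent of each other. The Serpinb5 and Serpinb6b probes share no run of 15 or more bases with the probe of another Serpin gene.

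**Figure D1:**
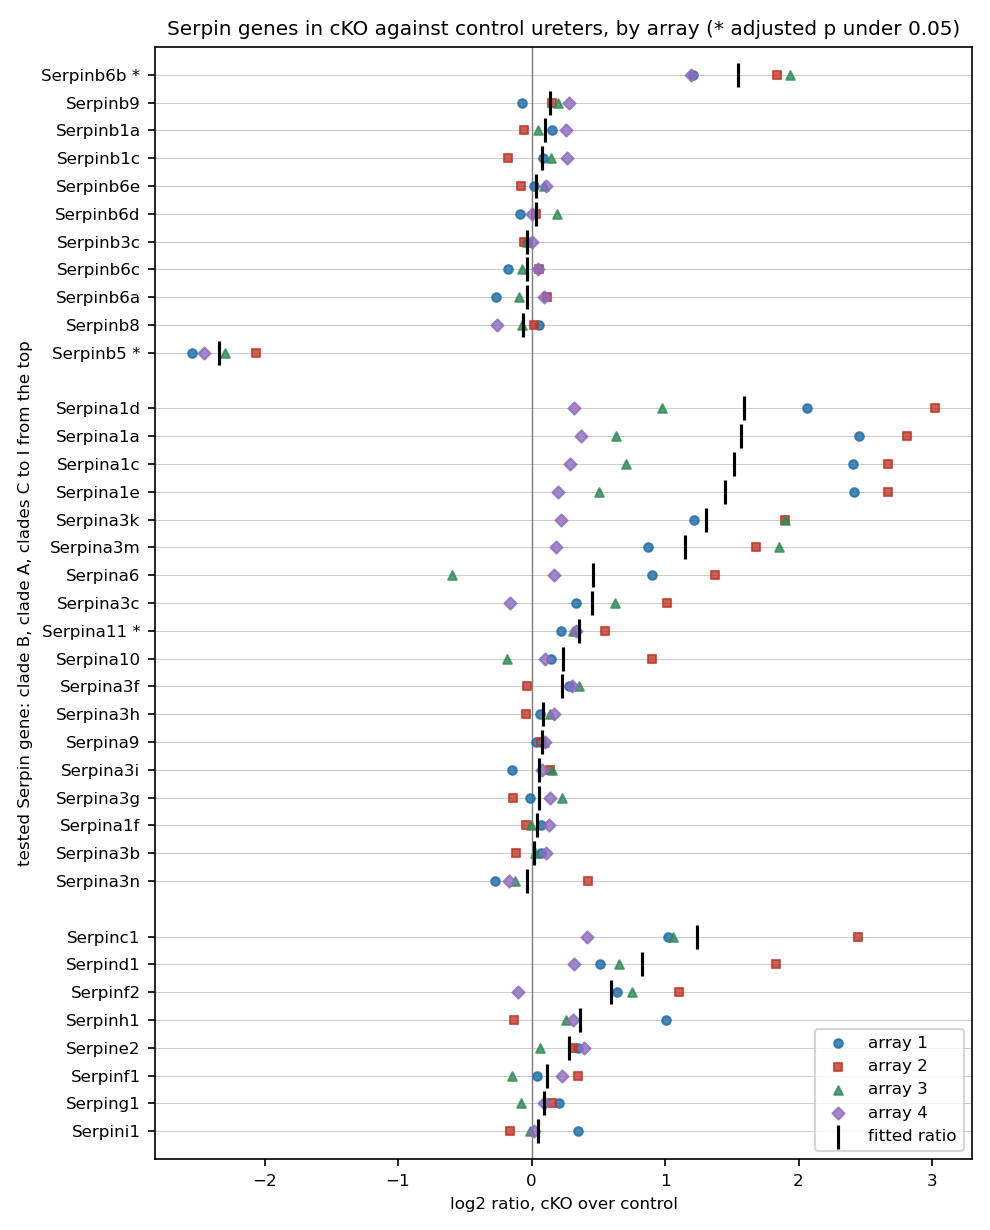
Log2 ratio of cKO over control (horizontal axis) of the tested Serpin genes reported here, clade B at the top, clade A in the middle and clades C to I at the bottom. Coloured points are the 4 arrays, the black bar is the fitted ratio and an asterisk marks an adjusted p under 0.05; Serpinb5 lies between -2.54 and -2.06 on all arrays, while Serpina1a, Serpina1c, Serpina1d and Serpina1e spread from 0.20 to 3.02.

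Serpinb5, known as maspin, is an epithelial clade B serpin that does not trap proteases itself and is known as a marker of basal and squamous cells. Its normalized log2 intensity was 9.44, 9.81, 9.58 and 9.42 in the cKO RNAs of arrays 1 to 4, against 11.98, 11.87, 11.88 and 11.87 in the control RNAs. The groups did not overlap, and the 4 control RNAs lay close together. The ratio was -2.54, -2.06, -2.30 and -2.46, so that Serpinb5 fell by 2.34 ± 0.21 on the log2 scale, or 5.07-fold (SD, n = 4; limma adjusted p = 0.000448). It passed in all 16 alternative settings tried, with ratios of -2.44 to -2.24.

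The fall of Serpinb5 stood beside that of the basal cell markers. Of 11 listed basal urothelium markers, 11 were tested, 10 were lower and 0 higher, with a median ratio of -2.18. The log2 of their summed intensities was 14.82 to 15.22 in the cKO RNAs and 17.26 to 17.55 in the control RNAs. Trp63 and the basal keratin Krt5 are both among these 11, and the median is the value of Trp63. Trp63 had a ratio of -2.18 ± 0.50 (adjusted p = 0.00208) and Krt5 one of -2.86 ± 0.10 (adjusted p = 0.000157). Whether the Trp63 probe lies in the deleted region is not given. Of 6 superficial urothelium markers 0 passed, with a median of -0.46. In bulk RNA, fewer cells of a type and less RNA per cell cannot be told apart, and the part of the basal markers in the value of Serpinb5 was not tested.

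Serpinb6b is one of several mouse genes related to human SERPINB6, whose protein is an intracellular inhibitor of granule proteases. Its log2 intensity was 12.19, 13.74, 13.41 and 13.08 in the cKO RNAs and 10.99, 11.90, 11.48 and 11.89 in the control RNAs of arrays 1 to 4. The lowest cKO value, on array 1, still exceeded the highest control value, on array 2. The ratio was 1.21, 1.84, 1.94 and 1.19 on the 4 arrays. Serpinb6b thus rose 2.92-fold, by 1.54 ± 0.40 on the log2 scale (SD, n = 4; limma adjusted p = 0.00656). It passed in 15 of 16 alternatives and missed the threshold only when the 2 channels were treated as unpaired (adjusted p = 0.0859).

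**Figure D2:**
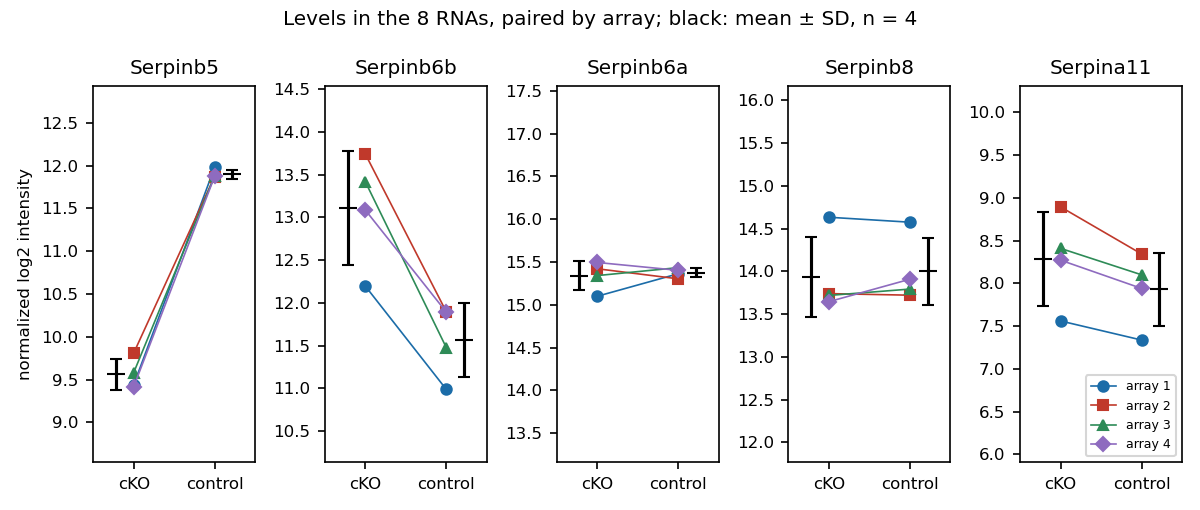
Normalized log2 intensity (vertical axis, spanning the same range in each panel) of 5 Serpin genes in the 4 cKO RNAs (left) and the 4 control RNAs (right), with lines joining RNAs of 1 array and black bars for the mean ± SD (n = 4). Serpinb5 and Serpinb6b separate by genotype, while in Serpinb8 array 1 lies above the other arrays in both genotypes.

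The 4 tested paralogs of Serpinb6b did not pass. Serpinb6a, the counterpart of human SERPINB6, which is needed for hearing, had levels of 15.10, 15.42, 15.34 and 15.49 in the cKO RNAs, against 15.36, 15.30, 15.43 and 15.40 in the control RNAs. These overlap, and the ratio was -0.04 ± 0.18 (adjusted p = 0.768). The ratio was -0.04 ± 0.11 for Serpinb6c, 0.03 ± 0.12 for Serpinb6d and 0.04 ± 0.09 for Serpinb6e, and in each of these 3 the levels overlapped as well. The difference between Serpinb6b and each paralog was not tested.

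The other tested clade B genes had ratios close to 0. Serpinb9, the inhibitor of granzyme B that protects cells from cytotoxic granules, had a ratio of 0.14 ± 0.15 (adjusted p = 0.289), with levels of 9.87 to 10.46 in the cKO and 9.94 to 10.18 in the control. Serpinb1a, which inhibits neutrophil elastase and cathepsin G, had a ratio of 0.10 ± 0.14 (adjusted p = 0.481); the related Serpinb1c had one of 0.08 ± 0.19 (adjusted p = 0.645). Serpinb8, known in human cells as an inhibitor of furin, had a ratio of -0.07 ± 0.14 (adjusted p = 0.65), and Serpinb3c, of the squamous cell carcinoma antigen group, one of -0.03 ± 0.02 (adjusted p = 0.785). The Serpinb8 probe holds TG repeats over much of its length, and whether it reads Serpinb8 alone was not tested. Serpinb3c had levels of 9.55, 8.18, 8.16 and 8.22 in the cKO RNAs and 9.58, 8.23, 8.19 and 8.22 in the control RNAs. Array 1 thus stood above the others in both channels, as for Serpinb8, and the ratios there did not stand apart.

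Clade B lies in 2 clusters. On chromosome 1 the 12 probes span 726340 bases (mm9), with Serpinb5 at one end and Serpinb8 at the other. Only 3 of these genes could be tested, and 1 was lower and 2 did not pass. On chromosome 13 the 15 probes span 1075163 bases, 8 genes were tested, 1 was higher and 7 did not pass. The Serpinb6b probe lies 38932 bases from that of Serpinb9 and 94674 bases from that of Serpinb1c, neither of which passed.

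**Figure D3:**
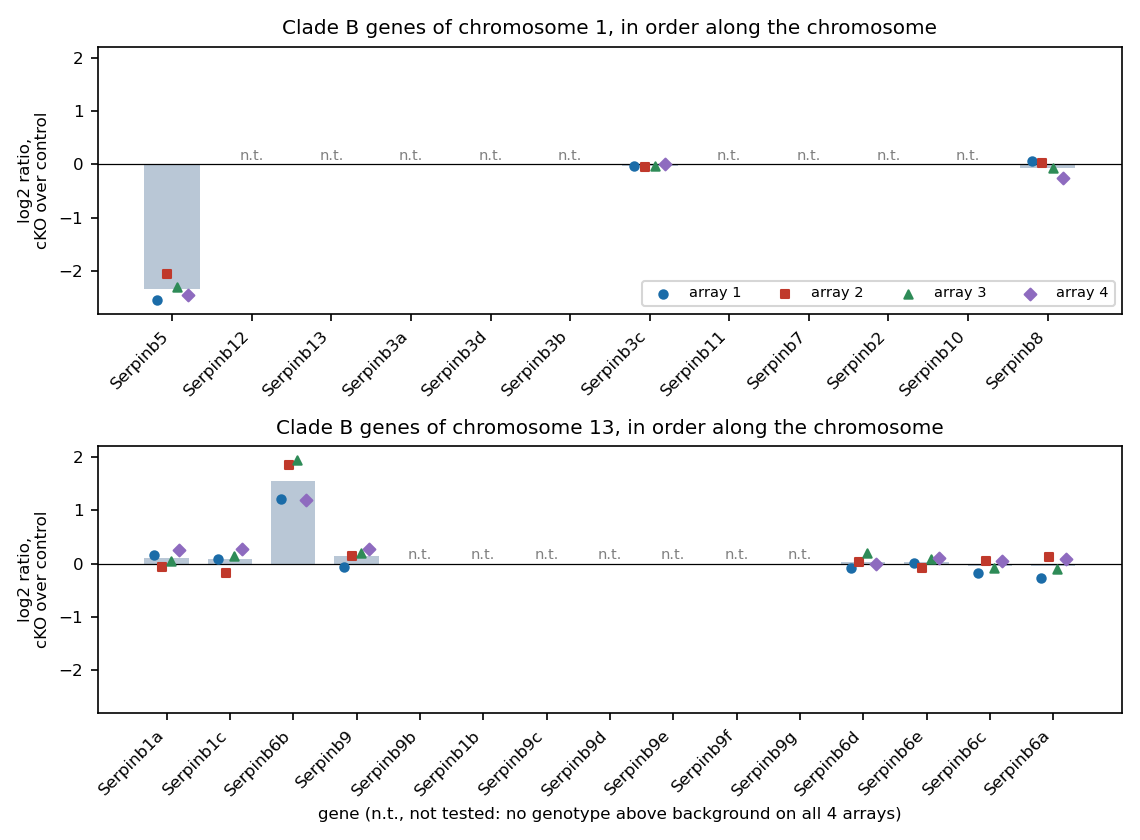
Log2 ratio of cKO over control (vertical axis) of clade B genes in their order along chromosome 1 (top) and chromosome 13 (bottom), evenly spaced; bars are fitted ratios, points the 4 arrays and n.t. marks genes that could not be tested. Serpinb5 at -2.34 and Serpinb6b at 1.54 stand alone, and the other tested members lie between -0.07 and 0.14.

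The untested clade B genes were Serpinb1b, Serpinb2, Serpinb3a, Serpinb3b, Serpinb3d, Serpinb7, Serpinb9b, Serpinb9c, Serpinb9d, Serpinb9e, Serpinb9f, Serpinb9g, Serpinb10, Serpinb11, Serpinb12 and Serpinb13. They include serpins known from keratinocytes, such as Serpinb7, Serpinb12 and Serpinb13. Outside clade B, Serpina3a, Serpina3j, Serpina5, Serpina7, Serpina12, Serpina16 and Serpini2 could not be tested. Of these 23 genes, 20 were above background on at most 1 array in each genotype, and 5 of those on none. Some stood high on array 1 in both genotypes. Levels there were 8.48 (cKO) and 8.57 (control) for Serpinb3a, 7.52 and 7.54 for Serpinb9e, and 7.76 and 7.77 for Serpinb9f. On the other arrays these genes had levels of 6.08 to 6.34. Others showed no such step, such as Serpinb11 at 6.38 to 6.56 over all arrays and both genotypes. Serpina3j was above background on 3 control RNAs and 0 cKO RNAs, with ratios of -0.34, -0.38, -0.34 and -0.20, and it was called lower when dim probes were kept.

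The start of each gene was compared with sequence motifs, since p63 is a DNA-binding factor. RefSeq promoter sequences (GRCm38.p6, 250 bases before to 50 after the start) were matched by symbol for 51 of 61 members. A gene was counted where any of its promoters matched. The full site of the p53 family, searched on both strands, was in 0 of 51, and in 0.0111% of all 27025 genes with promoters. The p63 half-site was in 1 of 51, Serpina3c, and in 2.24% of all genes. The motif TGANTCA, which reads the same on both strands, was chosen after its matches were seen. Its forms TGAGTCA and TGACTCA are known as sites of AP-1 factors. TGANTCA was in promoters of 7 of 11 clade B genes on chromosome 1 and 0 of 14 on chromosome 13. It was in 3 of 18 genes of clade A, 0 of 8 of clades C to I and 8.97% of all genes. A match is a string of letters in this window and shows no binding.

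Promoters of the 2 genes at the ends of the chromosome 1 cluster are shown, with positions in GRCm38.p6 and TGANTCA in capitals. Serpinb5, which fell, has 1 match, TGAATCA, and Serpinb8, which did not pass, has 2, both TGAGTCA.
Serpinb5, chr1:106860925-106861224, plus strand: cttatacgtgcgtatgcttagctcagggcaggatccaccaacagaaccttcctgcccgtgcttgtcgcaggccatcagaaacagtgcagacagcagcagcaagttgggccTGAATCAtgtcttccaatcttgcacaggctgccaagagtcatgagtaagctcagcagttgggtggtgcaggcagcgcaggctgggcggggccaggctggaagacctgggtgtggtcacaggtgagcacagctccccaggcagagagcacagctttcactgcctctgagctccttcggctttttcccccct
Serpinb8, chr1:107589756-107590055, plus strand: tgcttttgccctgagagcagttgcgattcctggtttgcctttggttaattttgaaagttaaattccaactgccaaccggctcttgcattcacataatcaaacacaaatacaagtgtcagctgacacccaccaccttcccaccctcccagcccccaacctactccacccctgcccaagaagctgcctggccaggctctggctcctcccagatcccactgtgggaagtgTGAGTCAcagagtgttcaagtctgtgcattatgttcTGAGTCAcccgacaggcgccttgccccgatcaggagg
Serpinb6b, which rose, has 0 matches in its promoter.

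Among the secreted serpins, Serpina11 was the member of clade A that passed. Its levels were 7.56, 8.89, 8.41 and 8.27 in the cKO RNAs and 7.34, 8.34, 8.10 and 7.94 in the control RNAs, which overlap between arrays, although the cKO was higher on each array. The ratio was 0.22, 0.55, 0.31 and 0.33, a rise of 1.28-fold or 0.35 ± 0.14 on the log2 scale (limma adjusted p = 0.0301). The call was lost in 7 of 16 alternatives, including every one that left out an array (adjusted p = 0.0523 to 0.121). A second Serpina11 probe, shifted by 3 bases, gave 0.36 ± 0.43, with an adjusted p over probes of 0.24. The files place the brighter probe on a transcript record that no RefSeq gene in the table used here lists, while the second probe is listed for Serpina11. The 2 probes differ from each other at 4 positions, in capitals in the windows that follow, brighter probe first. Which of them matches the transcript of these mice was not tested, so the call rests on a probe whose match is uncertain.
Serpina11, chr12:105218462-105218521, minus strand: ccccctgcaCggcaggaccccCgCgctGca
Serpina11, chr12:105218465-105218524, minus strand: ccccctgcaTggcaggaccccTgTgctTca

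The Serpina1 genes encode α1-antitrypsin, the main plasma inhibitor of neutrophil elastase. The ratios of Serpina1a, Serpina1c, Serpina1d and Serpina1e were above 0 on each array but far apart, and none passed. These genes and the other plasma serpins described here were picked after their values were seen. Serpina1c had levels of 12.27, 14.60, 12.38 and 11.19 in the cKO RNAs, against 9.86, 11.93, 11.68 and 10.90 in the control RNAs. The ratio of Serpina1c was 2.41 and 2.67 on arrays 1 and 2 but 0.71 and 0.29 on arrays 3 and 4 (fitted 1.52 ± 1.20, adjusted p = 0.122). The fitted ratio was 1.60 ± 1.19 for Serpina1d, 1.57 ± 1.25 for Serpina1a and 1.45 ± 1.28 for Serpina1e, with adjusted p-values of 0.108, 0.124 and 0.155. Second probes gave 1.62 ± 1.41 for Serpina1d, 1.49 ± 1.13 for Serpina1a and 1.16 ± 1.71 for Serpina1e. Their limma adjusted p-values over probes were 0.153, 0.114 and 0.378. Serpina1f, a further member of the same gene group, had a ratio of 0.04 ± 0.08.

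The Serpina3 genes, the mouse relatives of α1-antichymotrypsin, divided by gene. Serpina3k had levels of 7.20, 9.14, 8.62 and 6.81 in the cKO RNAs and 5.98, 7.24, 6.72 and 6.59 in the control RNAs, of which 2 were above background. The ratio of Serpina3k was 1.22, 1.90, 1.90 and 0.22 (fitted 1.31 ± 0.79, adjusted p = 0.0546), and it passed in 8 of 15 alternatives. Since it was tested through its cKO RNAs and 2 control values were not above background, its ratio is imprecise. Serpina3m had a ratio of 0.87, 1.68, 1.85 and 0.18 (fitted 1.15 ± 0.77, adjusted p = 0.0762). Both were highest on arrays 2 and 3, whereas those 4 Serpina1 genes were highest on arrays 1 and 2. Serpina3c had a ratio of 0.46 ± 0.50 and Serpina3f of 0.23 ± 0.18, the latter from a probe listed also for Serpina3h. The probe listed for Serpina3f alone gave 0.05 ± 0.08. Serpina3b, Serpina3g, Serpina3h, Serpina3i and Serpina3n lay between -0.04 and 0.08, and none of the tested Serpina3 genes passed.

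The remaining clade A genes did not pass. Serpina6, the carrier of corticosteroids in plasma, had ratios of 0.90, 1.38, -0.60 and 0.17, which differ in sign and are lowest on array 3 (adjusted p = 0.438). Serpina10, an inhibitor of clotting factors that works with protein Z, had a ratio of 0.24 ± 0.46, also lowest on array 3, and Serpina9 one of 0.08 ± 0.03.

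The clotting serpins showed the same kind of spread. Serpinc1, antithrombin, had levels of 8.18, 11.30, 9.28 and 8.38 in the cKO RNAs and 7.16, 8.85, 8.22 and 7.96 in the control RNAs. Its ratio was 1.02, 2.45, 1.06 and 0.42, above 0 on each array and highest on array 2 (fitted 1.24 ± 0.86, adjusted p = 0.0846). Serpind1, heparin cofactor II, had a ratio of 0.83 ± 0.68 (adjusted p = 0.112), and Serpinf2, the α2-antiplasmin that blocks plasmin, one of 0.60 ± 0.51 (adjusted p = 0.143). Without array 4, singled out here after its low values were seen, 10 of 38 Serpin genes were higher rather than 2. They were Serpina1a, Serpina1c, Serpina1d, Serpina3c, Serpina3k (2 control values not above background), Serpina3m, Serpinb6b, Serpinc1, Serpind1 and Serpinf2. The Serpina1 genes among them are not independent. In that fit array 2 alone stands for its dye orientation and weighs as much as arrays 1 and 3 together. The spread then comes from arrays 1 and 3 only, so this count is no firmer than the main one. With each array left out in turn, 1 to 10 Serpin genes were higher, against 268 to 379 of all 18161 genes.

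Markers of hepatocytes, which make most plasma serpins, differed between the arrays as well. Of 14 listed markers 14 were tested, 5 were higher, 0 lower and 9 did not pass, with a median ratio of 1.61 and medians of 2.06, 2.55, 1.32 and 0.47 on arrays 1 to 4. The log2 of their summed intensities, in which the brightest probes weigh most, was 15.29, 17.82, 15.92 and 14.87 in the cKO RNAs. In the control RNAs it was 13.64, 15.44, 14.66 and 14.35. The summed level thus varied among the control RNAs too, lowest on array 1 and highest on array 2, as did the level of Serpina1c. Of those that passed, Ahsg had a ratio of 1.77 ± 0.85, the fetal plasma protein Afp 1.93 ± 0.98, and the fibrinogen chains Fgg and Fgb 2.09 ± 1.11 and 1.71 ± 0.91 (adjusted p = 0.0354, 0.0386, 0.046 and 0.0466). By contrast, Apoc3 had one of 0.03 ± 0.03 and Ttr was highest on array 3, at 1.32. The part of these transcripts in the values of the plasma serpins was not tested.

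**Figure D4:**
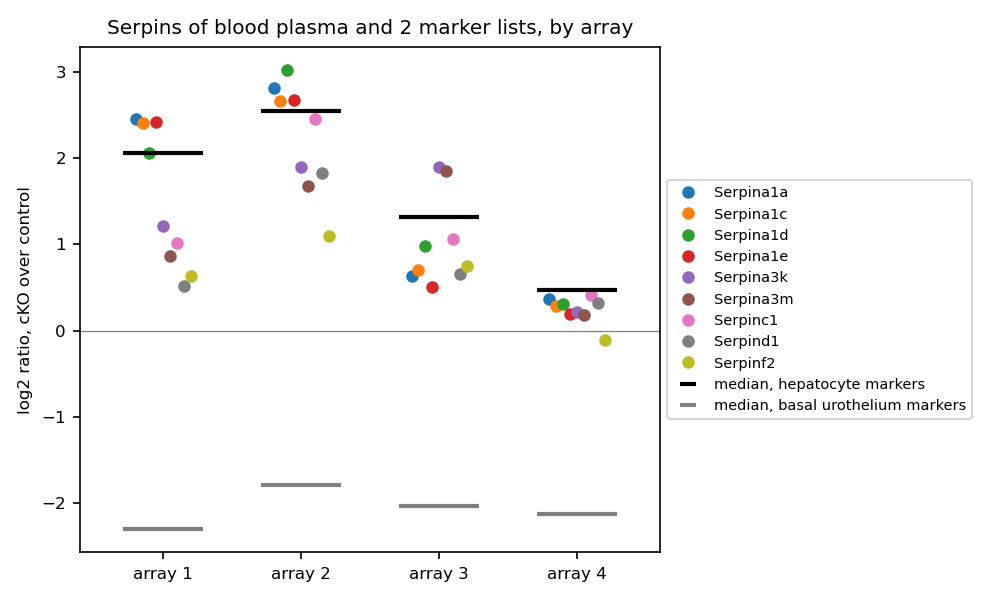
Log2 ratio of cKO over control (vertical axis) on each array for 9 serpins of blood plasma (points) and the median of 14 hepatocyte markers (black bars) and 11 basal urothelium markers (grey bars). The hepatocyte median is 2.06, 2.55, 1.32 and 0.47 on arrays 1 to 4, while the basal median stays between -2.30 and -1.78. These 9 serpins, picked after their values were seen, are lowest on array 4. Other plasma serpins are not plotted, among them Serpina6 and Serpina10, which were lowest on array 3 (-0.60 and -0.19).

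The serpins of matrix, complement and nerve did not pass. Serping1, the C1 inhibitor of complement, had levels of 14.16, 14.04, 13.99 and 14.05 in the cKO RNAs and 13.96, 13.88, 14.07 and 13.96 in the control RNAs, a ratio of 0.09 ± 0.12 (adjusted p = 0.471). Serpinf1, the secreted pigment epithelium-derived factor, had a ratio of 0.12 ± 0.22 (adjusted p = 0.321), and Serpini1, neuroserpin, one of 0.05 ± 0.22 (adjusted p = 0.786). Serpinh1, the endoplasmic reticulum chaperone of collagen, had ratios of 1.01, -0.13, 0.26 and 0.31. Array 1 had the highest ratio and array 2 one below 0, and the fitted value was 0.36 ± 0.48 (adjusted p = 0.213).

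Serpine2, protease nexin-1, an inhibitor of thrombin and plasminogen activators, did not pass. Its levels were 11.90, 11.85, 11.66 and 12.21 in the cKO RNAs and 11.54, 11.54, 11.60 and 11.81 in the control RNAs. The groups overlap, although the cKO was above the control on each array, at 0.28 ± 0.15 (adjusted p = 0.0751).

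Proteases and receptors that serpins act on were read from the same fit. In the list of plasminogen activation and its receptors, 2 of 13 tested genes were higher, 1 was lower and 10 did not pass. Plaur, the urokinase receptor, rose by 0.26 ± 0.13 (adjusted p = 0.0417), and Vtn, the adhesive plasma protein vitronectin, by 0.69 ± 0.36 (adjusted p = 0.0481). Sorl1, an endocytic receptor, fell by 0.88 ± 0.33 (adjusted p = 0.0194). The activators Plau and Plat had ratios of -0.36 ± 0.25 and 0.10 ± 0.14 and did not pass.

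Of 14 tested epithelial serine proteases 4 were lower, 0 higher and 10 did not pass, with a median of -0.15. The transmembrane proteases Tmprss13 and St14 fell by 0.95 ± 0.34 and 0.74 ± 0.29 (adjusted p = 0.0156 and 0.0258), and Prss22 by 0.65 ± 0.22 and Prss27 by 0.33 ± 0.10 (adjusted p = 0.0172 and 0.0345). Of 13 lysosomal cathepsins, Ctse was higher at 0.83 ± 0.31 (adjusted p = 0.0199), Ctsc, which activates granule proteases, was lower at -0.61 ± 0.14 (adjusted p = 0.0079), and 11 did not pass. Of 10 tested granule serine proteases, the targets of clade B serpins among them, 2 were lower, 0 higher and 8 did not pass. Those 2 were the mast cell chymases Cma1 at -0.86 ± 0.06 (adjusted p = 0.00128) and Mcpt4 at -0.45 ± 0.14 (adjusted p = 0.0235), beside 1 of 3 tested mast cell markers, Cpa3, at -0.99 ± 0.08. Of 12 tested coagulation proteases and receptors 1 was higher, Procr, 2 were lower, F2rl1 and F5, and 9 did not pass.

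The male pair differed from the female pairs by no called Serpin gene (0 of 38, where limma called 0% of all genes). At an unadjusted p under 0.05 there were 13 Serpin genes, 9 of them in clade A, against 4.78% of all genes. Beside the dye term this contrast equals array 2 minus array 4. It thus sets the array on which the 9 plotted plasma serpins were high against the array on which they were lowest. Those 9 were picked after their values were seen. The contrast rests on 1 male pair, and sex and array 2 cannot be told apart.

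Over all spots, 90.0% of green and 82.6% of red signals were well above background on array 1, while arrays 2 to 4 had 75.0% to 76.5% in green and 72.4% to 72.9% in red. Of 7 smooth muscle, 6 mesenchyme, 6 endothelial and 6 leukocyte markers, each was tested and 0 passed in either direction. Among mesothelial and kidney tubule markers 1 of 4 each was higher, Msln at 2.84 ± 0.17 and Cubn at 2.27 ± 0.52, while the medians of these lists were -0.05 and 0.00 and their other tested members did not pass. Their part in any Serpin value was not tested.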

How the data were processed

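Per the labels, total RNA (200 ng) was amplified in 1 T7 round and coupled to AlexaFluor555 or AlexaFluor647, with the cKO in 647 on arrays 1 and 3 and in 555 on arrays 2 and 4. Agilent Feature Extraction 10.7.3.1 gave each spot's intensity, per the submitters' processing notes; the log10 ratios of red over green in the same files come from it too, per the file headers. The authors' deposited value table was an alternative: set against log2 ratios of red over green from the same files, turned to cKO over control, its values had slopes of 1.00 on each array, so they were taken as log2 of cKO over control (medians of 0). All arrays lay on 1 slide scanned together, so no slide effect could be fitted.

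Intensities were corrected with normexp (offset 50), and loess-normalized within arrays with control spots at weight 0; log2 ratios of cKO to control followed. Flagged outlier spots were dropped and the others averaged. The brightest passing probe stood for a gene. Levels are log2 intensities after loess and quantile scaling of average intensity; probes differ in affinity, so levels are not compared between genes. The test was limma 3.58.1 (R 4.3.3) with a dye term (2 residual degrees of freedom) and checked on simulated data. Errors are SDs over arrays, whose number, 4, limits precision. The p-values rest instead on the spread left after the dye term, pooled by limma with that of all genes. A printed SD is therefore not the error behind the p-value beside it. Pairing is built into the ratio, since both RNAs share a spot (intra-spot correlation 0.741). Names of probes were updated through RefSeq genes (GRCm38.p6): 28328 probes through accessions, 3400 through current and 243 through former symbols; 1777 names stayed as deposited and 5681 probes carried no name.

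Members, lists and rules were chosen with earlier results of these data known. The rule named each member past the threshold, each tested clade B gene and the 2 brightest tested genes of each other clade, and from each list up to 4 genes past the threshold or the 2 brightest; not all of these are named in the text. The Serpina genes named outside it, and Trp63, Apoc3, Ttr, Plau and Plat, were picked after their values were seen. Alternatives covered background, normalization, filter, probe choice, dye term, pairing and each array left out. The values of 1 tested member of clades C to I are not reported here.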

Additional observations from a re-analysis of the deposited data

Results flagged for a closer look

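Sets of 4 values were checked, namely each tested Serpin gene's levels within a genotype and its 4 ratios. Of 114 sets, 10 had 1 value far from the other 3, with a gap above 0.829 of the range. Chance gives about 1 in 20 for independent sets. These sets are not independent, since both RNAs of an array share spots and the ratios come from the same signals. The share over all genes was not computed. Each of these 10 values lay on array 1. In the cKO RNA of array 1, Serpinb3c at 9.55 and Serpinb8 at 14.63 lay above the other arrays (8.16 to 8.22 and 13.65 to 13.74), while Serpina3i at 7.38, Serpina9 at 7.02 and Serpinb6e at 7.36 lay below them. In the control RNA of array 1, Serpinb3c at 9.58 and Serpinb5 at 11.98 lay above the others, and Serpina3c at 6.26, Serpina9 at 6.98 and Serpinb9 at 9.94 lay below. Array 1 also had the largest shares of spots well above background among the 4 arrays, and their part in these levels was not tested. No ratio of cKO over control was among the 10.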

How the results depend on the processing

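No Serpin result turned its direction past the threshold in the alternatives run. Serpinb5 passed in 16 of 16 and Serpinb6b in 15 of 16. The number of higher Serpin genes was 4 with Agilent's processed signals (adding Serpina3k and Serpind1), 1 with the mean of all passing probes, 5 without the dye term, 4 with separate channels and the array as a replicate block (Serpina3k, Serpina3m, Serpinb6b and Serpine2), 0 with separate channels and no block, and 1 to 10 with an array left out: 1 without array 1 or 3, 4 without array 2 and 10 without array 4. Higher clade A genes numbered 2 with the processed signals, no background subtraction, a normexp offset of 16, median centring or the block, 3 without the dye term, 0 with averaged probes or no block, and 0 to 6 with an array left out. Higher clade B genes numbered 0 with no block. Without the filter on dim probes, 2 Serpin genes and 1 clade A gene were lower, Serpina3j being the added one. Over all genes, 530 were higher and 1021 lower; these counts were 259 and 596 in the deposited table, 1238 and 1731 with the replicate block, 120 and 438 without it, and 268 to 379 and 570 to 810 with an array left out (268 and 570 without array 1, 269 higher without array 3, 320 and 576 without array 4). The causes were not tested. With 3 arrays, 1 dye orientation has a single array, whose spread is assumed to be that of the others. Signal over background limits the 23 untested members, and the deposited table lists dim probes at 0.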
